A study of Mus musculus with 7 samples.

Results

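One library of induced neural stem cells carrying a diphtheria toxin allele, called DTA iNSC here, was compared with one library of the induced neural stem cell line pBKSM. A gene entered the comparison when it reached 5 FPKM in the higher of the 2 libraries, and 9400 of the 24354 genes in the table did so. FPKM counts sequenced fragments against the length of the transcript and the size of the library. The difference was taken on the log2(FPKM + 1) scale, DTA iNSC minus pBKSM, and a gene was counted as 2-fold apart at a difference of 1 or more. This scale understates the difference of genes with low values. Each side was 1 library made from RNA pooled over 2 to 3 biological replicates, so no value has a replicate error and no test was possible.

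Both lines were made from fibroblasts of embryos at embryonic day 13.5, with viral vectors and neural stem cell medium. Head, spinal cord and internal organs had been removed before the fibroblasts were grown. The DTA iNSC line carried Oct4-CreER and a Rosa26-loxSTOPlox-DTA allele, and its strain was labelled unknown. The pBKSM line carried Oct4-CreER and Rosa26-loxSTOPlox-EYFP on a strain given as C57BL/6-Pou5f1 x 129X1/SvJ. Its name is read here as a polycistronic vector with Brn4 (gene Pou3f4), Klf4, Sox2 and Myc. The labels do not give the vector or factors of the DTA iNSC line, nor whether Cre was induced in the cells that were sequenced. Genotype, strain, vector and line therefore cannot be told apart in any difference given here. The other 5 libraries of the series were used as values beside these. They were pOKSM and clones 1 and 3 of mcBKSM, which share the genotype and strain of pBKSM, control neural stem cells (cNSC) from OG2/ROSA26 embryonic brain, and embryonic fibroblasts (MEF) with the EYFP genotype.

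Oct4-CreER is a tamoxifen-dependent Cre recombinase under control of the Oct4 (Pou5f1) locus, and Oct4 is a factor of pluripotent cells. In a cell that has activated Oct4 while Cre is induced, Cre removes the stop cassette at Rosa26. That cell then makes either the yellow fluorescent protein EYFP or diphtheria toxin fragment A, which blocks protein synthesis and kills it. Neural stem cells express Sox2, Nes and Fabp7, keep dividing in medium with growth factors, and can form neurons, astrocytes and oligodendrocytes. Their place along the body axis is recorded in patterning genes, with Otx2 in the forebrain and Hox genes in the hindbrain and spinal cord.

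The libraries held an estimated 17.3 M (DTA iNSC) and 11.7 M (pBKSM) fragments, and all 7 lay between these. For a 2 kb transcript, a count of 3 fragments was 0.0867 FPKM in DTA iNSC and 0.128 FPKM in pBKSM, and smaller values are at the counting floor. Of the 9400 genes, 570 were 2-fold or more higher in DTA iNSC (6.06%) and 418 were 2-fold or more lower (4.45%), which is 988 in all (10.5%). At 4-fold, 145 genes were higher (1.54%) and 101 were lower (1.07%). The median difference was −0.07 and the median size of a difference was 0.34. A gene under 5 FPKM in 1 library entered only through the other, so it could not be counted as higher in the first. That held for 753 genes under 5 FPKM in pBKSM and for 349 genes under 5 FPKM in DTA iNSC. Clones 1 and 3 of mcBKSM, the only libraries that share a label group, were 2-fold or more apart at 114 of 9024 genes (1.26%). By the same measure pBKSM was apart from pOKSM at 11.6% of 9282 genes, and from clones 1 and 3 at 18.0% and 18.4%. Of 198 genes with 5 to 5.5 FPKM in the higher library, 30 were 2-fold apart, and of 229 genes with 4.5 to 5 FPKM, just outside the limit, 37 were.

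Both libraries had the markers of neural stem cells. Fabp7, a fatty acid binding protein of radial glia, had 2725 FPKM in DTA iNSC and 5051 FPKM in pBKSM, and the intermediate filament gene Nes had 202 and 275 FPKM. In bulk RNA, fewer cells of a type and less RNA per cell cannot be told apart. The fibroblast genes Col1a1 and Thy1 had 0.386 and 0.0747 FPKM in DTA iNSC, 0.152 and 0.3305 FPKM in pBKSM, and 439.8 and 111 FPKM in MEF. The 34 fibroblast genes in the table summed to 252 FPKM in DTA iNSC, 404 FPKM in pBKSM, 685 FPKM in cNSC and 9930.2 FPKM in MEF. A single gene, Fbln2, gave 249 FPKM of the sum in pBKSM and 0.4201 FPKM of that in DTA iNSC. The pluripotency gene Nanog had 0.4801 FPKM in DTA iNSC and 0.189 FPKM in pBKSM, and Pou5f1 was listed at 0 in both. None of the 15 microglia and blood genes in the table or of the 14 endothelial and pericyte genes reached 5 FPKM in either library. Their summed levels were 4.44 and 0.494 FPKM in DTA iNSC, against 2.47 and 2.06 FPKM in pBKSM.

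**Figure D1:**
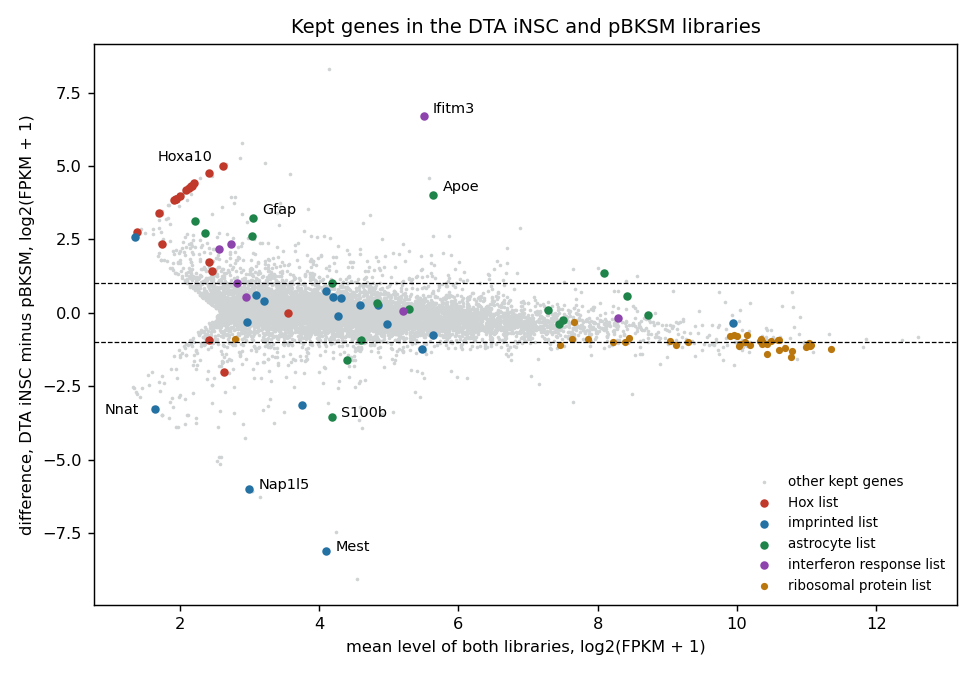
Difference between DTA iNSC and pBKSM (vertical axis, log2(FPKM + 1)) against the mean level of both libraries (horizontal axis, log2(FPKM + 1)), 1 point per kept gene, for the 9400 genes that reached 5 FPKM in either library. Dashed lines mark differences of 1 and −1. Of the 19 Hox genes, 16 lie above the upper line, and Mest and Nap1l5 are far below the lower one.

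Among the gene lists the highest median difference was that of the Hox genes, which encode homeodomain factors that specify position along the body axis. They lie in 4 clusters, and within each cluster low paralog numbers are used anteriorly and high ones posteriorly. Of 39 Hox genes, 26 reached 1 FPKM in DTA iNSC and 6 in pBKSM. Of the 19 that entered the comparison, 16 were 2-fold or more higher in DTA iNSC and 1 was lower, beside 6.06% and 4.45% of all genes. Of the 16, 13 were genes of paralog groups 6 to 10 that entered only through DTA iNSC, so they could not have been lower. The median difference of the 19 was 3.88, and was 3.68 with the 11 members listed at 0 in pBKSM set to the floor of 3 fragments. Over all 9400 genes the median was −0.07.

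The Hoxa cluster (chr6:52155367-52260880) showed a split by position. Hoxa9 had 26.6 FPKM in DTA iNSC and 0.0298 FPKM in pBKSM, and Hoxa10 had 33.4 and 0.0865 FPKM, so both were at the counting floor in pBKSM. Hoxa6 had 6.55 FPKM in DTA iNSC and 0.492 FPKM in pBKSM, and Hoxa7 had 8.72 and 1.94 FPKM. At the anterior end of the cluster the order was mixed. Hoxa2 was higher in DTA iNSC (7.97 FPKM, against 2.36 FPKM in pBKSM), Hoxa5 was near equal (10.7 and 10.8 FPKM), Hoxa3 had 2.903 and 6.35 FPKM, and Hoxa4 was lower in DTA iNSC, at 2.07 FPKM against 11.5 FPKM in pBKSM. Hotairm1, a noncoding RNA of the cluster that was named after its values were seen, had 40.9 FPKM in DTA iNSC and 35.3 FPKM in pBKSM.

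The Hoxb cluster (chr11:96194316-96368254) and the Hoxc cluster (chr15:102921131-103036856) were listed at 0 in pBKSM at every gene. In DTA iNSC, 8 of 10 Hoxb genes and 6 of 9 Hoxc genes reached 1 FPKM, with summed levels of 89.7 and 73.97 FPKM. The highest Hoxb genes in DTA iNSC were Hoxb8 at 19.1 FPKM and Hoxb6 at 18.2 FPKM. The highest Hoxc genes were Hoxc6 at 20.2 FPKM, Hoxc8 at 19.04 FPKM and Hoxc10 at 17.1 FPKM. In the Hoxd cluster (chr2:74668225-74765142), Hoxd3, Hoxd4 and Hoxd8 had 2.65, 3.93 and 13.8 FPKM in DTA iNSC and were listed at 0 in pBKSM. Hoxd9, Hoxd10 and Hoxd11 were listed at 0 in both. Cluster bounds are from the RefSeq annotation of GRCm38.p6, the assembly also named mm10.

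By paralog number, 13 of the 15 genes of groups 6 to 10 entered the comparison and all 13 were 2-fold or more higher in DTA iNSC. Only 1 of the 15, Hoxa7, reached 1 FPKM in pBKSM, and it was under 5 FPKM there. All 13 thus entered only through DTA iNSC, so none of them could have been lower. Of the 9 genes of groups 11 to 13, none reached 1 FPKM in DTA iNSC or in pBKSM. The posterior limit of Hox expression in DTA iNSC was thus at group 10 in Hoxa and Hoxc, at group 9 in Hoxb and at group 8 in Hoxd.

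Elsewhere in the series Hox genes at 1 FPKM or more numbered 18 in pOKSM, 16 and 17 in mcBKSM clones 1 and 3, 6 in cNSC and 11 in MEF. Those 6 in cNSC were all Hoxa genes, as they were in pBKSM. The pOKSM line and the clones each had 5 of 10 Hoxb genes at 1 FPKM or more, and no Hoxc gene. Hoxd13 had 15.5 FPKM in pOKSM and 11.5 and 18.6 FPKM in the clones, against 0.101 FPKM in DTA iNSC and 0.0372 FPKM in pBKSM. Hoxc10 was listed at 0 in all libraries other than DTA iNSC. Hoxc9 had 13.2 FPKM in DTA iNSC and 1.18 FPKM in MEF, and was listed at 0 in the others.

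**Figure D2:**
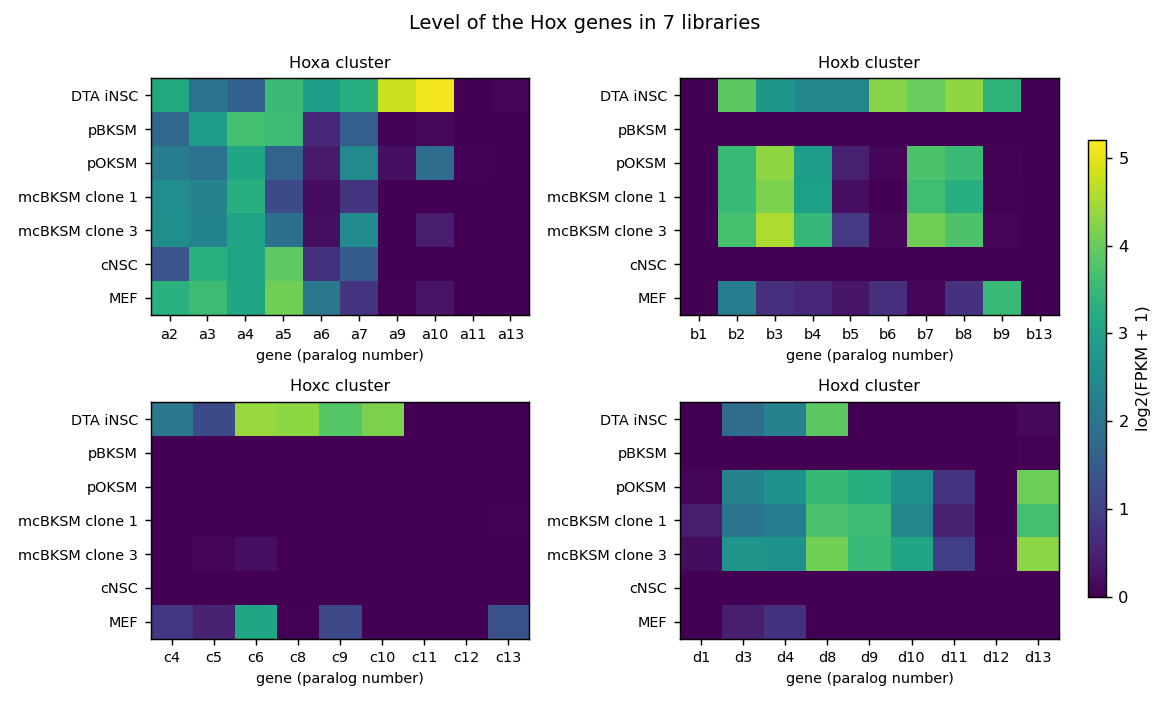
Level of Hox genes as log2(FPKM + 1) (colour) in the 4 clusters, with genes in paralog order on the horizontal axis and the 7 libraries as rows, DTA iNSC at the top and pBKSM under it. The pBKSM row is at 0 in the Hoxb and Hoxc panels, where DTA iNSC has 8 and 6 genes at 1 FPKM or more, and groups 11 to 13 are at or near 0 in both rows.

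The promoters of Hoxa9 and Hoxb8 are shown because they differ in CpG content while both genes were expressed in DTA iNSC and at or under the counting floor in pBKSM. Each sequence runs from 250 bases before to 50 bases after a start listed for the gene in RefSeq (GRCm38.p6). It is written 5′ to 3′ on the gene's own strand, and capitals mark CG dinucleotides. The Hoxa9 promoter is chr6:52227321-52227620 on the minus strand, and that of Hoxb8 is chr11:96281655-96281954 on the plus strand. The Hoxa9 stretch spans the upstream end of the gene's interval (chr6:52223097-52227370). The Hoxb8 stretch lies wholly inside that gene's interval (chr11:96279401-96285325), so the stretches are not placed alike.
Hoxa9: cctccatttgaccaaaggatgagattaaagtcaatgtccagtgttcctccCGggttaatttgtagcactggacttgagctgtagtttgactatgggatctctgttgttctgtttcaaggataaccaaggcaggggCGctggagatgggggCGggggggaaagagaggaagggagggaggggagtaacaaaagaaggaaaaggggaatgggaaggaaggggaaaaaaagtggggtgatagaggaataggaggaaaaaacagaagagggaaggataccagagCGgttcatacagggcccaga
Hoxb8: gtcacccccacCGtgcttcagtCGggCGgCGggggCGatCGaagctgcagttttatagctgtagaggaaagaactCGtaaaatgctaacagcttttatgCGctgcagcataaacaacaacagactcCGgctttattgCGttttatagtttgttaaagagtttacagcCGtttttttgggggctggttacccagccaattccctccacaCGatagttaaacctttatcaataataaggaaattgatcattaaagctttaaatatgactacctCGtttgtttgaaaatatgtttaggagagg
The Hoxa9 stretch held 4 CG dinucleotides and the Hoxb8 stretch 13. The ratio of CG dinucleotides found to that given by the base content was 0.28 for Hoxa9 and 0.97 for Hoxb8. Over the 7283 compared genes with a promoter in the table the median ratio was 0.81.

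Other regional factors differed at single genes. The forebrain and midbrain homeobox gene Otx2 was listed at 0 in DTA iNSC and had 8.43 FPKM in pBKSM, and it had 2.42 FPKM in cNSC. Of 20 forebrain genes 3 entered the comparison, with 2 lower in DTA iNSC and none higher, beside 4.45% and 6.06% of all genes. The forebrain factor Lhx2 had 12.2 FPKM in DTA iNSC and 13.2 FPKM in pBKSM.

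Of 9 midbrain and hindbrain genes compared, 4 were 2-fold or more higher in DTA iNSC and 2 were lower, where over all genes 6.06% were higher and 4.45% were lower. The 4 higher ones were Irx1 (17.2 FPKM in DTA iNSC, 0.0911 FPKM in pBKSM), Irx3 (13.2 and 4.58 FPKM), Irx5 (15.9 and 6.13 FPKM), all Iroquois homeobox genes, and the zinc finger gene Zic1 (28.4 and 9.63 FPKM). Irx1 and Irx5 were also expressed in MEF, at 18.8 and 11.1 FPKM, while Irx3 had 1.09 FPKM there and Zic1 was listed at 0. The midbrain and hindbrain boundary gene En2 had 3.05 FPKM in DTA iNSC and 7.41 FPKM in pBKSM. The hindbrain segmentation gene Egr2, which is also an immediate early gene, had 3.53 and 10.7 FPKM.

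Of 6 dorsoventral genes compared, 3 were higher in DTA iNSC and 1 was lower, beside 6.06% and 4.45% of all genes. Dbx2, a homeobox gene of progenitors at intermediate levels of the neural tube, had 43.9 FPKM in DTA iNSC and 0.164 FPKM in pBKSM. Irx3, given above, was another of the higher ones. Dbx2 was at 26.7 FPKM in cNSC and under 1 FPKM in the other iNSC libraries. Nkx2-2, a factor of ventral progenitors and of oligodendrocyte precursors, was lower in DTA iNSC, at 3.23 FPKM against 15.01 FPKM in pBKSM.

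Imprinted genes, which are read from the copy of 1 parent, held the most negative difference of a protein-coding gene in the comparison. Of 40 such genes 18 entered the comparison, with 1 higher and 5 lower in DTA iNSC, beside 6.06% and 4.45% of all genes. Mest, a paternally expressed gene encoding a hydrolase-like protein (chr6:30733506-30748466), had 0.0263 FPKM in DTA iNSC, under the counting floor, and 286 FPKM in pBKSM. Its level in the other 5 libraries was between 117 FPKM in MEF and 340.4 FPKM in pOKSM. DTA iNSC was thus the 1 library of 7 without Mest signal.

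Nap1l5, a paternally expressed retrogene of the nucleosome assembly family (chr6:58905233-58907126), was listed at 0 in DTA iNSC and had 62.5 FPKM in pBKSM. The other iNSC libraries and cNSC had between 20.3 and 31.5 FPKM, and it was listed at 0 in MEF. Nnat, a paternally expressed proteolipid gene, was listed at 0 in DTA iNSC and had 8.71 FPKM in pBKSM. It varied widely elsewhere, with 163 FPKM in cNSC, 55.9 FPKM in pOKSM, 0.0674 FPKM in mcBKSM clone 1 and 0 in clone 3. Ndn, a MAGE family growth suppressor, had 3.55 FPKM in DTA iNSC and 38.9 FPKM in pBKSM, and Peg10, derived from a retrotransposon, had 28.1 and 67.1 FPKM.

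One imprinted gene went the other way. The noncoding RNA Peg13 had 5.22 FPKM in DTA iNSC and 0.0378 FPKM in pBKSM, and pBKSM was here the lowest of the 7 libraries, with 1.34 to 7.89 FPKM in the other 5. The 12 remaining imprinted genes were within 2-fold, among them Peg3 at 22.7 FPKM in DTA iNSC and 15.5 FPKM in pBKSM, and Gnas at 864 and 1112 FPKM.

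Genes at the same loci, chosen after the values were seen, did not follow. Herc3, whose interval (chr6:58831455-58920398) contains Nap1l5, had 6.23 FPKM in DTA iNSC and 6.94 FPKM in pBKSM. Copg2, which overlaps the end of Mest, had 25.2 and 20.9 FPKM. Blcap around Nnat had 24.3 and 22.9 FPKM, and Trappc9 around Peg13 had 17.5 and 19.1 FPKM. Snrpn, which lies near Ndn on chromosome 7, had 30.3 FPKM in DTA iNSC and 25.1 FPKM in pBKSM, and Sgce beside Peg10 had 26.5 and 34.8 FPKM. The counting was not stated to use strand, so reads of overlapping genes cannot be told apart.

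**Figure D3:**
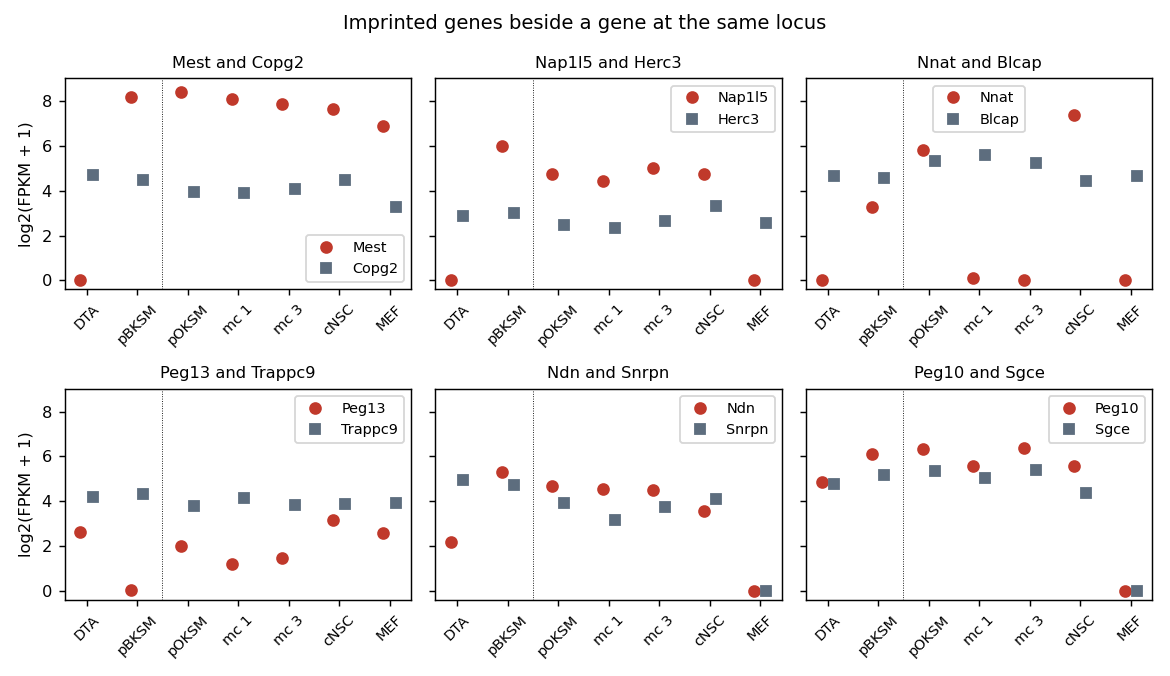
Level of 6 imprinted genes (circles) and of a gene at the same locus (squares) as log2(FPKM + 1) in each of the 7 libraries, DTA iNSC and pBKSM left of the dotted line and mcBKSM clones 1 and 3 written as mc 1 and mc 3. Mest has 0.0263 FPKM in DTA iNSC against 286 FPKM in pBKSM, while its neighbour Copg2 has 25.2 and 20.9 FPKM.

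The promoters of Mest and Nap1l5 are shown because these 2 genes had no signal above the counting floor in DTA iNSC. They follow the same layout as above, with CG dinucleotides in capitals. The Mest stretch belongs to the start with the most CG dinucleotides of 3 listed for the gene, at chr6:30737800-30738099 on the plus strand, and the Nap1l5 stretch is chr6:58907077-58907376 on the minus strand.
Mest: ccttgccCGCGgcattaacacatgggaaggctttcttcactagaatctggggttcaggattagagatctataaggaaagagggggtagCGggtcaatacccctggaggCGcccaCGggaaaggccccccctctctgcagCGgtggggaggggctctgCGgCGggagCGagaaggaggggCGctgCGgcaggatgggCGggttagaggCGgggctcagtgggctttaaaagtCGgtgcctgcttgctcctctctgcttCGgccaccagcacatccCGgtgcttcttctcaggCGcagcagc
Nap1l5: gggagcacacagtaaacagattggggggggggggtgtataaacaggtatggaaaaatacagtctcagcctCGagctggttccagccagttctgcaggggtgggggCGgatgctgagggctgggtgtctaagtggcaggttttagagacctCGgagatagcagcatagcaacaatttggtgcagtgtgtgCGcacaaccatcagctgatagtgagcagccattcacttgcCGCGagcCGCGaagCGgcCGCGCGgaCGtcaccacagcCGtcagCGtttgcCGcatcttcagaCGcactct
Each stretch held 17 CG dinucleotides, with ratios of found to given by base content of 0.59 for Mest and 0.701 for Nap1l5. Methylation was not analysed here.

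The CG ratio was also counted over the promoters of the genes furthest apart, with no test of the difference. A ratio of 0.6 or more was found in 38.9% of 95 promoters of genes 4-fold or more higher in DTA iNSC, in 55.4% of 65 promoters of genes 4-fold or more lower, and in 81.5% of the 7283. A promoter was found for 95 of the 145 higher genes and for 65 of the 101 lower genes, so the shares leave out the rest of each set. Motifs were searched on both strands of the same 300 bases. The octamer ATGCAAAT, read by POU factors, was in 1.05% of the higher set, in none of the lower set and in 1.3% of all 7283. The SOX motif ACAATG was in 4.21%, 7.69% and 6.73% of these, and the E-box CACGTG in 7.37%, 10.8% and 10.9%. ACAATG ends in the letters ATG with which ATGCAAAT starts, so a match of each can share them. A match is a description only.

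Among the reprogramming factor genes, none of the 4 compared was 2-fold apart. Pou3f4 had 24.1 FPKM in DTA iNSC and 19.99 FPKM in pBKSM, with differences of 0.26 for Pou3f4, 0.27 for Sox2, −0.68 for Klf4 and −0.65 for Myc. The values do not separate transcripts of the endogenous genes from those of a vector.

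Of 27 neural stem cell and radial glia genes compared, 7 were 2-fold or more higher in DTA iNSC and 4 were lower, beside 6.06% and 4.45% of all genes. The Notch target Hes5 had 69.6 FPKM in DTA iNSC and 16.7 FPKM in pBKSM, the highest and next highest of the 7 libraries, and the Notch ligand gene Dll1 had 32.6 and 31.5 FPKM. The matrix glycoprotein gene Tnc had 185 FPKM in DTA iNSC and 56.5 FPKM in pBKSM. Sox1, a SoxB1 factor of neural progenitors, had 8.39 FPKM in DTA iNSC and 2.31 FPKM in pBKSM, both below the 27.1 to 27.7 FPKM of pOKSM and the clones. The endothelin receptor gene Ednrb was lower in DTA iNSC, at 11.1 FPKM against 30.8 FPKM in pBKSM. Pax6, a homeobox factor of radial glia, had 12.6 and 8.75 FPKM.

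Astrocyte genes differed in both directions. Of 17 compared, 7 were higher in DTA iNSC and 2 were lower, beside 6.06% and 4.45% of all genes, with a median difference of 0.34. Apoe, the apolipoprotein of astrocytes, had 199.7 FPKM in DTA iNSC and 11.4 FPKM in pBKSM. The astrocyte filament gene Gfap had 24.5 FPKM in DTA iNSC and 1.701 FPKM in pBKSM, and the water channel gene Aqp4 had 12.7 and 0.5601 FPKM. Apoe and Gfap were higher still in cNSC, at 649.6 and 374 FPKM, whereas Aqp4 had 1.21 FPKM there. The chaperone gene Clu had 12.1 FPKM in DTA iNSC and 0.9997 FPKM in pBKSM.

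Against these, the calcium-binding protein gene S100b was lower in DTA iNSC, at 4.31 FPKM against 61.5 FPKM in pBKSM. The other 5 libraries had at most 2.99 FPKM, so pBKSM was the 1 library with a high level. The gap junction gene Gja1 had 11.04 FPKM in DTA iNSC and 35.7 FPKM in pBKSM. The potassium channel gene Kcnj10, which is typical of glia, had 53.9 FPKM in DTA iNSC, 0.591 FPKM in pBKSM and 68.6 FPKM in cNSC, while its partner subunit gene Kcnj16 went the other way, with 0.533 FPKM in DTA iNSC and 10.6 FPKM in pBKSM.

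Of 8 oligodendrocyte lineage genes, 2 were higher in DTA iNSC and 3 were lower, beside 6.06% and 4.45% of all genes. Bcas1, a gene of early myelinating oligodendrocytes, had 109 FPKM in DTA iNSC and 40.9 FPKM in pBKSM, and the myelin glycoprotein gene Omg had 10.6 and 1.93 FPKM. Olig2, which specifies the lineage, was lower in DTA iNSC, with 193 FPKM against 423 FPKM in pBKSM, and Cmtm5 had 10.4 and 54.3 FPKM. Beside 4.45% of all genes, 3 of the 4 neuronal genes compared out of 31 were lower in DTA iNSC. These were the synaptic vesicle gene Syt1 (0.511 FPKM in DTA iNSC, 9.55 FPKM in pBKSM), the microtubule gene Map2 (112 and 259 FPKM) and the growth cone gene Gap43 (5.74 and 14.5 FPKM). The difference of Gap43 was −1.20, and −0.93 after an adjustment for transcript length that is given with the ribosomal genes, so that it was then within 2-fold.

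Counts in signalling pathways were small, and are to be read beside the 6.06% of all genes that were higher and the 4.45% that were lower. Of 16 Notch genes, 4 were higher in DTA iNSC and 1 was lower. Besides Hes5, the feedback inhibitor Nrarp had 15.9 FPKM in DTA iNSC and 4.94 FPKM in pBKSM, the ligand gene Dll3 had 6.77 and 2.46 FPKM, and the receptor gene Notch2 had 14.98 and 6.97 FPKM. After the adjustment for length Notch2 was within 2-fold, with a difference of 0.46. Lfng, a glycosyltransferase that modifies Notch, was lower, at 60.3 FPKM in DTA iNSC and 127 FPKM in pBKSM. Of 10 Hedgehog genes, 3 were higher (Gli3, Cdon and Gpr161, with differences of 1.31, 1.13 and 1.01) and none was lower, and after the adjustment for length 1 of them, Gli3, was 2-fold apart.

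In the Wnt pathway, 3 of 19 genes were higher and 3 were lower. Lgr5, a receptor for R-spondins, had 18.3 FPKM in DTA iNSC and 4.28 FPKM in pBKSM, and the feedback gene Axin2 had 22.4 and 8.67 FPKM. The ligand genes Wnt5a and Wnt7a were lower in DTA iNSC, with 7.39 and 5.05 FPKM there and 22.5 and 15.6 FPKM in pBKSM. Of 18 FGF and EGF pathway genes, Hbegf and Dusp4 were higher and none was lower. Hbegf, an EGF receptor ligand whose human precursor is the diphtheria toxin receptor, had 25.1 FPKM in DTA iNSC and 5.04 FPKM in pBKSM. Hbegf was also the 1 gene 2-fold apart in a list of 11 genes for toxin entry, diphthamide synthesis and elongation factor 2, the target of diphtheria toxin. The elongation factor gene Eef2 itself had 936 FPKM in DTA iNSC and 1432 FPKM in pBKSM. TGF-beta and BMP genes gave 2 higher and 2 lower of 16, with the BMP target Id1 at 48.2 FPKM in DTA iNSC and 107 FPKM in pBKSM. The difference of Id1 was −1.13, and −0.77 after the adjustment for length.

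The IGF axis was lower in DTA iNSC at 4 of 11 genes and higher at 1, beside 4.45% and 6.06% of all genes. Igfbp4, an IGF-binding protein, had 68.7 FPKM in DTA iNSC and 573 FPKM in pBKSM, and Igfbp5 had 20.7 and 89.3 FPKM. Igfbp7 and the RNA-binding protein gene Igf2bp3 had differences of −2.44 and −2.22. The adaptor gene Irs2, at 14.5 FPKM in DTA iNSC and 5.78 FPKM in pBKSM, was the higher one. Its difference of 1.19 was 0.88 after the adjustment for length, which left no higher gene. The median of the 11 genes was −0.21, and was 0.12 with quantile normalization.

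Of 31 genes for matrix proteins, proteases and their receptors, 11 were higher in DTA iNSC and 5 were lower, beside 6.06% and 4.45% of all genes. Their median difference was 0.69, and 0.25 after the adjustment for length, when 9 were higher and 5 were lower. Col4a1, a basement membrane collagen, had 9.37 FPKM in DTA iNSC and 53.4 FPKM in pBKSM, and Col9a3 had 2.49 and 35.1 FPKM. The secreted F-spondin gene Spon1 had 5.67 FPKM in DTA iNSC and 83.6 FPKM in pBKSM. The gelatinase gene Mmp2 was lower in DTA iNSC (0.732 FPKM, against 32.4 FPKM in pBKSM) and Mmp14, whose protein activates it, was higher (15.9 FPKM, against 3.09 FPKM in pBKSM).

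Fbln2, which encodes the elastic fibre protein fibulin 2, had the second most negative difference of a protein-coding gene, after Mest. It had 0.4201 FPKM in DTA iNSC and 249 FPKM in pBKSM, with 21.8 to 198 FPKM in the other 5 libraries. It belongs to the fibroblast list, of which 9 of 36 genes were compared. In that list 3 were higher and 3 were lower, beside 6.06% and 4.45% of all genes. Twist1, a mesenchymal factor, had 0.2802 FPKM in DTA iNSC and 13.4 FPKM in pBKSM. Fn1, the fibronectin gene, had 43.02 FPKM in DTA iNSC and 9.08 FPKM in pBKSM, and Col5a2 had 16.97 FPKM in DTA iNSC and was listed at 0 in pBKSM.

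Of 24 genes of axon guidance and adhesion, 9 were higher in DTA iNSC and 4 were lower, beside 6.06% and 4.45% of all genes. The adhesion molecule genes Cntn1, Ncam1 and Cdh13 had 40.3, 117 and 59.2 FPKM in DTA iNSC, against 5.77, 29.2 and 14.6 FPKM in pBKSM. The ephrin receptor gene Epha5 was lower, at 2.59 FPKM in DTA iNSC and 10.2 FPKM in pBKSM. Of 17 ion channel and transmitter receptor genes, 3 were higher and 2 were lower. The kainate receptor gene Grik3 had 18.1 FPKM in DTA iNSC and 0.00991 FPKM in pBKSM, and the GABA receptor gene Gabra2 had 0.289 and 13.5 FPKM. Clustered protocadherins, which give neurons their surface identity, had 3 higher and 1 lower of 11. The 3 were Pcdhb2, Pcdhb9 and Pcdhb11, with 7.73, 5.12 and 6.199 FPKM in DTA iNSC, against 0.892, 0.776 and 1.22 FPKM in pBKSM, and the lower one was Pcdhgb6 (0.493 and 5.098 FPKM).

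Of 7 interferon response genes compared out of 32, 4 were higher in DTA iNSC and none was lower, beside 6.06% and 4.45% of all genes. Ifitm3, a membrane protein that restricts virus entry, had the largest positive difference of a protein-coding gene, with 459 FPKM in DTA iNSC and 3.45 FPKM in pBKSM. The other 5 libraries had 242 to 671 FPKM, so that pBKSM was the library without a high level. The GTPase gene Irgm1 and the antiviral gene Ifit2 had 13.996 and 11.4 FPKM in DTA iNSC, against 1.97 and 1.78 FPKM in pBKSM. The remaining higher gene, Irf1, had 9.01 and 3.94 FPKM. Its difference was 1.02, and 0.82 with quantile normalization, which is within 2-fold. All 4 were under 5 FPKM in pBKSM and entered only through DTA iNSC, so they could not have been lower. None of 10 antigen presentation genes was 2-fold apart.

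Of 18 genes of the unfolded protein and integrated stress response, 6 were higher in DTA iNSC and 1 was lower, beside 6.06% and 4.45% of all genes. The heme oxygenase gene Hmox1 had 220.4 FPKM in DTA iNSC and 47.3 FPKM in pBKSM, the pseudokinase gene Trib3 had 19.6 and 2.98 FPKM, and the transcription factor gene Ddit3 (CHOP) had 39.1 and 10.99 FPKM. Chac1 and Nupr1 had differences of 2.19 and 1.79. The chaperone gene Hspa5, at 239 FPKM in DTA iNSC and 367 FPKM in pBKSM, and Atf4, at 184 and 220.2 FPKM, were within 2-fold. The lower member was the transcription factor gene Atf3, at 4.66 FPKM in DTA iNSC and 11.4 FPKM in pBKSM. Outside this list, Nqo1, an enzyme gene controlled by the oxidative stress factor NRF2, was lower in DTA iNSC, with 0.127 FPKM against 14.5 FPKM in pBKSM. Of 29 p53 target and apoptosis genes 1 was 2-fold apart, against 10.5% of all genes. It was the BH3-only gene Pmaip1 at 4.86 FPKM in DTA iNSC and 12.2 FPKM in pBKSM.

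Of 32 proliferation genes compared, 2 were higher in DTA iNSC and none was lower, a share near that of all genes, with a median difference of −0.21 (0.015 with quantile normalization). The 2 were Ccnd2, a G1 cyclin, at 172 FPKM in DTA iNSC and 49.8 FPKM in pBKSM, and Mki67 at 96.6 and 44.6 FPKM. Adjusted for length, Mki67 was within 2-fold, with a difference of 0.55. Of 6 CDK inhibitor genes none was 2-fold apart, and Cdkn2a had 53.6 FPKM in DTA iNSC and 97.5 FPKM in pBKSM. DNA methylation and Polycomb genes gave 3 higher of 21 and none lower, namely the Polycomb genes Phf19 and Pcgf2, at 7.299 and 10.2 FPKM in DTA iNSC and 1.93 and 2.996 FPKM in pBKSM, and the demethylation enzyme gene Tet2, at 5.998 and 2.05 FPKM. After the adjustment for length Tet2 was within 2-fold, with a difference of 0.65 in place of 1.20.

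Immediate early genes respond within minutes to serum or handling. Among 16 compared, 2 were higher in DTA iNSC and 4 were lower, beside 6.06% and 4.45% of all genes. After the adjustment for length 3 were higher and 3 were lower. Ier3 had 25.9 FPKM in DTA iNSC and 6.95 FPKM in pBKSM, and Egr3 had 2.202 and 10.3 FPKM. Fos and Egr1 were within 2-fold, at 138 and 113 FPKM in DTA iNSC and 71.7 and 213 FPKM in pBKSM, though the difference of Fos was 1.05 after the adjustment for length. Of 3 neural crest and Schwann genes compared, Egr2 and Gap43 were lower. Both also stand on other lists, and Gap43 was within 2-fold after the adjustment for length. Of 2 choroid plexus and ependyma genes, Otx2 was lower and the ciliary factor gene Foxj1 had 12.99 FPKM in DTA iNSC and 8.37 FPKM in pBKSM. None of 5 replication histone genes and none of 5 genes known to vary between strains was 2-fold apart. The strain list included Wdfy1, at 8.75 FPKM in DTA iNSC and 12.8 FPKM in pBKSM, and Ide, at 35.2 and 44.8 FPKM.

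Glycolysis genes were lower in DTA iNSC at 5 of 18 and higher at 1, beside 4.45% and 6.06% of all genes. Pdk1, the kinase that inhibits pyruvate dehydrogenase, had 2.88 FPKM in DTA iNSC and 17.1 FPKM in pBKSM, and Ldha, which makes lactate, had 401 and 1122 FPKM. Pfkl, Pgam1 and Pkm had differences of −1.29, −1.17 and −1.08, and that of Pkm was −0.98 after the adjustment for length. Of 32 respiratory chain genes 1 was lower, which is under the 4.45% of all genes. It was Uqcrh, with a difference of −1.02, and −0.54 after the adjustment for length. Of 24 cholesterol genes 1 was higher, the efflux transporter gene Abca1 at 7.14 FPKM in DTA iNSC and 1.44 FPKM in pBKSM.

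**Figure D4:**
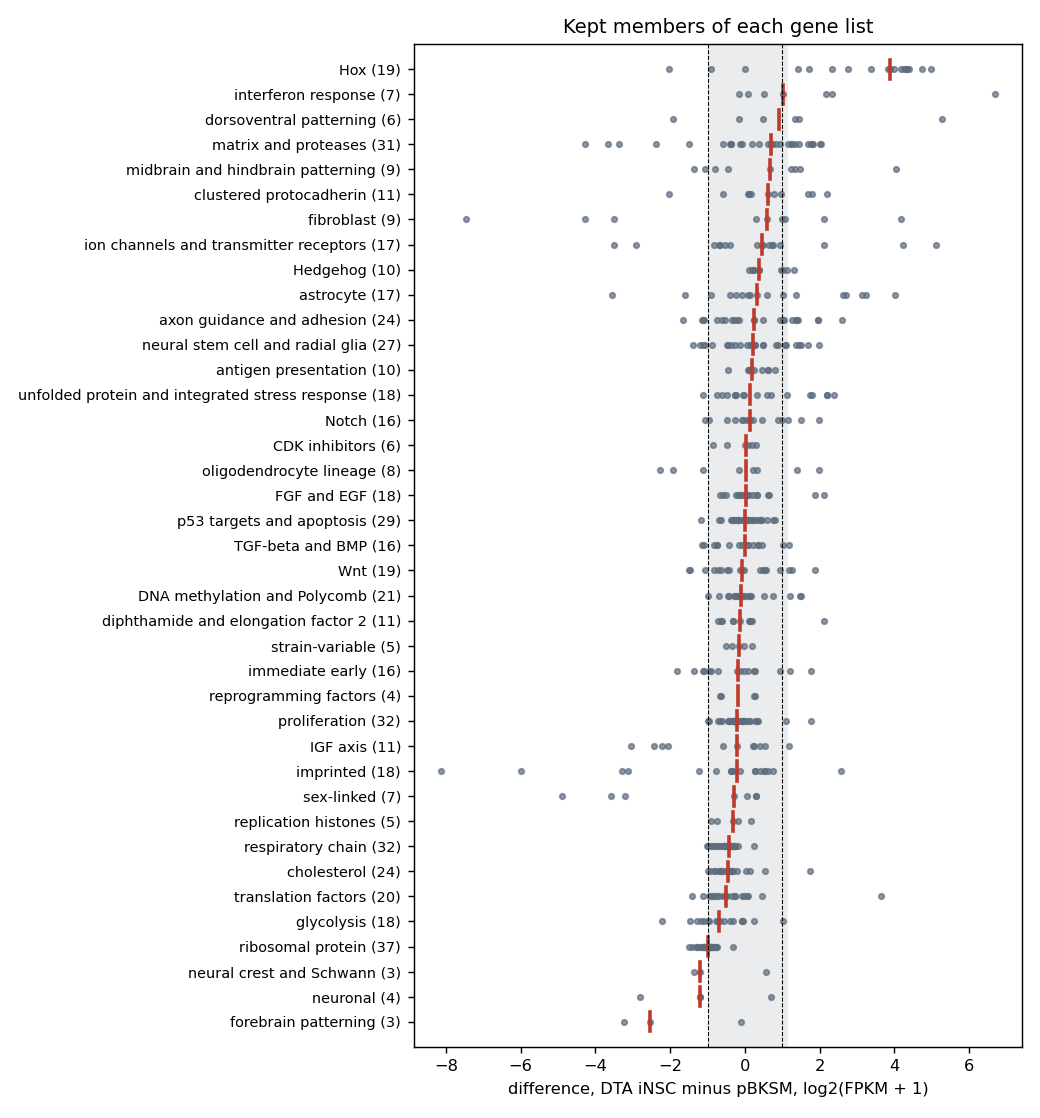
Difference between DTA iNSC and pBKSM on the log2(FPKM + 1) scale (horizontal axis) for the members of each gene list that entered the comparison (dots, number in brackets), with the list median as a red bar. The grey band spans the middle 90% of all 9400 genes and dashed lines mark 1 and −1. Hox genes have the highest median, 3.88, and the 3 forebrain genes the lowest, −2.55.

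Ribosomal protein genes were lower in DTA iNSC together. In a set of 79 such genes, drawn up after the values were seen, each had a negative difference, with a range of −1.75 to −0.32 and a median of −1.01, and 41 were 2-fold or more lower. With quantile normalization, which gives all libraries 1 distribution of values, 68 of the 79 were below 0, 3 were 2-fold lower and the median was −0.24. As deposited, these genes made up 13.3% of summed FPKM in DTA iNSC, 20.8% in pBKSM, 12.4% in cNSC, 16.4% in MEF and 22.7% to 24.8% in the other lines. Translation factors had a median of −0.51, with Eef1b2 at 239 FPKM in DTA iNSC and 637 FPKM in pBKSM. Eif3j1 had 13.03 FPKM in DTA iNSC and 0.121 FPKM in pBKSM, and Eif3j2 had 9.77 and 22.6 FPKM. These 2 genes are near-identical copies, so how fragments were split between them is uncertain.

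The difference between the libraries moved with transcript length, and ribosomal protein transcripts are short, with a median of 771 bases. The median difference of DTA iNSC minus pBKSM was −0.52 for 80 genes of up to 500 bases, −0.08 for 2203 genes of 2000 to 3000 bases and 0.46 for 785 genes over 6000 bases. For DTA iNSC minus cNSC the medians at the short and long ends were 0.31 and −0.04, and for pBKSM minus cNSC 0.98 and −0.46. Between the mcBKSM clones they were 0.02 and −0.06. The part of length in each gene's difference was not tested. When each library was set to the mean of all 7 within 20 bins of transcript length, 494 of 9083 genes were higher in DTA iNSC (5.44%) and 310 were lower (3.41%). After that step the ribosomal median was −0.62 with 6 of 79 genes 2-fold lower, while the Hox median was 4.05 and the Hox counts were again 16 higher and 1 lower. Quantile normalization brought other named genes within 2-fold, with differences of −0.77 for Ldha, −0.91 for Pgam1, −0.30 for Pkm, −0.70 for Olig2, −0.86 for Map2, −0.86 for Eef1b2, −0.82 for Lfng, −0.88 for Id1, −0.21 for Uqcrh, 0.95 for Dll3, 0.89 for Notch2, 0.81 for Gpr161 and 0.99 for Tet2.

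**Figure D5:**
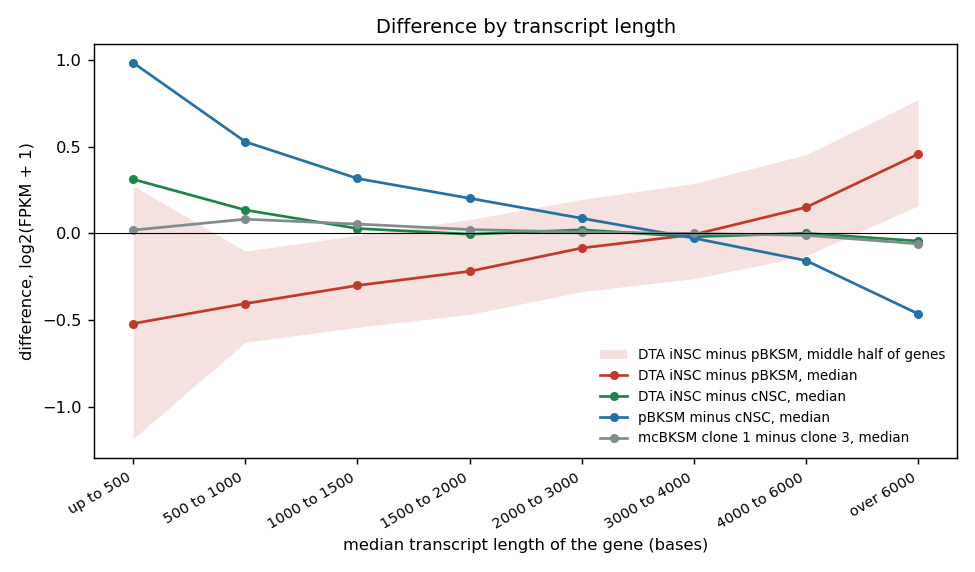
Median difference between pairs of libraries on the log2(FPKM + 1) scale (vertical axis) by the median transcript length of the gene in bases (horizontal axis, 8 bins), over genes that reached 5 FPKM in DTA iNSC or pBKSM. The shaded band runs between the quartiles of genes for DTA iNSC minus pBKSM, whose median climbs with length to 0.46, while the median between the mcBKSM clones stays between −0.06 and 0.08.

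Y-linked genes separated the libraries. In DTA iNSC, Eif2s3y and Ddx3y had 0.07299 and 0.0391 FPKM, at or near the counting floor, and Kdm5d was listed at 0. In pBKSM, Eif2s3y, Ddx3y and Kdm5d, all genes with a partner on X, had 31.2, 11.4 and 8.32 FPKM. Their X-linked partners were within 2-fold, with differences of 0.063 for Eif2s3x, −0.30 for Ddx3x and 0.30 for Kdm5c. Xist, the RNA of X inactivation, had 0.0821 FPKM in DTA iNSC and 0.00968 FPKM in pBKSM. Elsewhere, Eif2s3y was listed at 0 in pOKSM, in both mcBKSM clones and in MEF, and had 48.2 FPKM in cNSC. Ddx3y and Kdm5d were listed at 0 in MEF. In pOKSM, the clones and cNSC they had 12.5 to 28.3 and 3.52 to 9.68 FPKM.

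Chromosome 1 stood apart from the other autosomes. The 531 compared genes on chromosome 1 had a median difference of −0.34, with 28 higher (5.27%) and 46 lower (8.66%), whereas the medians of the other autosomes were between −0.14 and 0.05. The chromosome 1 median was −0.33 after the length step. It was 0.03 for DTA iNSC minus cNSC and 0.31 for pBKSM minus cNSC. In windows of 20 Mb along the chromosome the median was between −0.57 and 0.004. Map2, Eef1b2, Igfbp5 and Pcp4l1 lie on chromosome 1, and its part in their lower values in DTA iNSC was not tested. Kcnj10, Fn1 and Col5a2 also lie there and were higher in DTA iNSC.

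Genes outside the lists were also among the largest differences. Besides Hox genes, Ifitm3, Dbx2, Kcnj10 and Grik3, the 15 highest in DTA iNSC were Gng10, a G protein subunit (35.3 FPKM in DTA iNSC, 0.0909 FPKM in pBKSM, with its neighbour Dnajc25 at 3.98 and 7.33 FPKM), Ptrf, a coat protein of caveolae (60.1 and 1.33 FPKM), Lxn, a carboxypeptidase inhibitor (26.5 and 0.0937 FPKM), and Nell2, a secreted neural glycoprotein (232 and 8.78 FPKM). Among the 15 lowest, Tex13, named for expression in testis, was listed at 0 in DTA iNSC and had 32.3 FPKM in pBKSM. The protease gene Fam111a had 0.0963 FPKM in DTA iNSC and 32.2 FPKM in pBKSM, and the corepressor gene Tle4 had 1.77 and 36.5 FPKM. Pcp4l1, Tox2, Pdzrn4, Col28a1 and Epb4.1l3 had differences between −3.94 and −3.75. Small RNA genes, ribosomal protein genes and unnamed models were left out of this ranking.

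Some genes set 1 of the lines apart from every other library. DTA iNSC was 4-fold or more lower than each of the other 6 libraries at 5 genes (Mest, Fbln2, Fam111a, Arpin and Cbr3) and higher than each at 21, which include Hoxa9, Hoxa10, Hoxb6, Hoxc8, Hoxc9, Hoxc10, Nell2, Grik3 and Aqp4. The pBKSM library was lower than each of the others at 17 genes, which include Ifitm3, Gng10, Ptrf, Lxn, Col5a2, Cav2, Anxa5 and Ltbr, and higher than each at 13, which include S100b, Spon1, Cmtm5, Bmper and Tex13. These genes were sought after the values were seen, among all genes at 5 FPKM or more in any library. By the same search cNSC was lower at 10 genes and higher at 60, and MEF was lower at 323 and higher at 362. The pOKSM line and the mcBKSM clones each had 0 to 3 such genes in either direction. Caveolin 2, encoded by Cav2, works with the Ptrf product in caveolae, and had 20.3 FPKM in DTA iNSC and 0.735 FPKM in pBKSM. The lymphotoxin receptor gene Ltbr had 17.02 FPKM in DTA iNSC and was listed at 0 in pBKSM.

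Where the lines differed 2-fold, each of the other libraries can lie nearer to either. The cNSC value was on the DTA iNSC side of the midpoint for 394 of the 570 higher genes (69.1%) and for 289 of the 418 lower genes (69.1%). With pOKSM as the third library the shares of the higher and the lower genes were 25.1% and 43.8%. They were 30.5% and 53.6% with mcBKSM clone 1, 28.6% and 55.5% with clone 3, and 51.1% and 70.1% with MEF. Among the lower genes MEF was thus as often on the DTA iNSC side as cNSC was. After the length step the share for cNSC over all genes was 65.2%. In whole libraries, DTA iNSC and cNSC were 2-fold or more apart at 10.3% of 9555 genes, and pBKSM and cNSC at 16.9% of 9508. After the length step these shares were 10.3% and 14.1%. Of the Hox genes, cNSC had 6 at 1 FPKM or more, as pBKSM did.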

How the data were processed

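RNA pooled from 2 to 3 biological replicates gave 1 RNA-seq library for each of 7 samples. The deposited table holds FPKM per gene. The authors used Cufflinks 2.2.1 with Cuffnorm, STAR 2.5.2b and R 3.3.2 on mm10, per the submitters' processing notes. Their roles, the annotation and the strandedness were not given in the sources used here. DTA iNSC was compared with pBKSM as the difference of log2(FPKM + 1), over genes at 5 FPKM or more in the higher library. With 1 library per side there is no error and no test.

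The members and lists were chosen with earlier results of these data known. Named were the factor genes and 8 markers, up to 5 members of each list with the largest 2-fold difference, and the 15 largest differences each way, leaving out small RNA, ribosomal protein and unnamed genes. Other members and neighbouring genes were chosen after their values were seen. A few genes that count in the lists are not reported here by name.

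Depth was estimated from the steps between low FPKM values of 3316 genes with 1 transcript. Of these low values, 76.9% to 82.3% fell within 0.1 of a whole fragment. It is approximate, and floors from it cover counting error only. A gene of 2 kb at 5 FPKM had about 173 fragments in DTA iNSC and 117 in pBKSM. Positions and promoters are from RefSeq (GRCm38.p6), matched by symbol. Promoters were found for 7283 of the 9400 genes. Transcript length is the median over GENCODE M21 transcripts and was found for 9083 genes (96.6%). Length adjustment in 20 bins was added after seeing the data. Alternatives were other pseudocounts, filters and scalings. Python 3.11.15, numpy 2.4.6, pandas 2.3.3 and matplotlib 3.10.9 were used, and the scripts were tested on simulated data.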

Additional observations from a re-analysis of the deposited data

How the results depend on the processing

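No paired analysis was possible because each side was 1 pooled library, and for the same reason no library could be left out. The number of genes 2-fold or more higher in DTA iNSC was 862 with a limit of 1 FPKM or with no filter, 371 with a limit of 10 FPKM and 145 at 4-fold. At 4-fold 101 genes were lower and 246 were apart either way. Other pseudocounts, centring of the median difference and quantile or length normalization gave 494 to 680 higher and 310 to 472 lower. The share of these genes with cNSC on the DTA iNSC side was 63.4% with quantile and 65.2% with length normalization. The mcBKSM clones were apart at 1.61% of genes with a pseudocount of 0.1, 1.71% at 1 FPKM, 0.955% at 10 FPKM and 0.809% with no filter.

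Most of the list medians that moved did so with the filter on low values. With a limit of 1 FPKM they were −0.51 for neuronal, −0.55 for neural crest and Schwann, −0.51 for forebrain, 0.12 for midbrain and hindbrain, 2.58 for Hox, 0.48 for dorsoventral and −1.11 for sex-linked genes. With 10 FPKM they were 0.99 for fibroblast, 1.35 for midbrain and hindbrain, 1.35 for dorsoventral, 2.16 for interferon, 0.95 for axon guidance and −0.57 for IGF genes. With no filter the neuronal median changed sign to 0.0017, and the others were 0.023 for fibroblast, 0.0 for neural crest and Schwann, 0.0 for forebrain, 0.013 for midbrain and hindbrain, 1.73 for Hox, 0.028 for dorsoventral, 0.54 for interferon, 0.17 for protocadherin and −0.020 for ion channel genes. Pseudocounts of 0.1 and 0.5 gave −5.20 and −3.37 for forebrain and 7.12 and 4.83 for Hox genes. Quantile normalization gave −0.30 for glycolysis, −0.043 for respiratory chain, −0.086 for translation factor and −0.26 for ribosomal protein genes. Length normalization gave 0.25 for matrix and −0.62 for ribosomal protein genes. The median over all compared genes moved by less than 0.1 under these scalings. No compared gene named by the stated rule changed sign under any of these settings. Depth limits what is said of values under about 0.1 FPKM, where a library held about 3 fragments or fewer of a 2 kb transcript.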
